A study of Mus musculus with 6 samples.

Results

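Chemokines and chemokine receptors were read out in side population cells of the female mouse anterior pituitary. The members are all genes whose array symbol has the form of a Ccl, Cxcl, Cx3cl1, Xcl1, Ccr, Cxcr, Cx3cr1 or Xcr1 name, and 54 of the 30397 genes or unnamed transcripts on the array met this rule, 35 ligands and 19 receptors, with 70 of the 39429 probes. The side population was sorted by its efflux of Hoechst dye, and cells with the highest Sca1 level were left out, which gives a fraction in which pituitary stem cells cluster. Control mice carried the inducible diphtheria toxin receptor (iDTR) allele without a Cre driver (-/iDTR). GHCre/iDTR mice carried the same allele with Cre under the control of growth hormone, so that toxin removes growth hormone cells. Toxin was given to every mouse, controls included, for 3 or 10 days, in 2 daily doses of 4 ng for each g of body weight. There were 2 arrays for each genotype after 3 days and 1 for each genotype after 10 days. A sort started from 25000 to 50000 cells, and the amplification from 1 ng of RNA. The age of the mice and the number of mice pooled for a sort are not given in the sources used here.

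Chemokines are small secreted proteins that guide the migration of cells through receptors coupled to inhibitory G proteins. Inflammatory members are switched on by injury, cytokines and interferon and draw neutrophils, monocytes and effector lymphocytes. Homeostatic members, such as Cxcl12 and Ccl19, are made steadily and place lymphocytes, progenitor and stem cells within tissues, and many ligands share receptors.

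Sequences are given first for 5 inflammatory ligands whose values are described below. The 250 bases before the RefSeq transcription start (GRCm38.p6, 5′ to 3′ on the strand of the gene) are printed for Cxcl1 (chr5:90890995-90891244), Cxcl2 (chr5:90903649-90903898), Cxcl9 (chr5:92328080-92328329), Cxcl10 (chr5:92348890-92349139) and Ccl8 (chr11:82114935-82115184). Cxcl1, Cxcl2 and Ccl8 lie on the plus strand, and Cxcl9 and Cxcl10 on the minus strand. Capitals mark matches on either strand to GGGA, any 4 bases and CC (the NF-kB motif), to GAAA, any 2 bases and GAAA (the interferon-stimulated response element), to TGANTCA (the AP-1 motif) or to TTCNNNGAA (the STAT motif), where N is any base. The NF-kB motif can match both strands at overlapping places, whereas the AP-1 and STAT motifs read alike on both strands and were counted once.
Cxcl1: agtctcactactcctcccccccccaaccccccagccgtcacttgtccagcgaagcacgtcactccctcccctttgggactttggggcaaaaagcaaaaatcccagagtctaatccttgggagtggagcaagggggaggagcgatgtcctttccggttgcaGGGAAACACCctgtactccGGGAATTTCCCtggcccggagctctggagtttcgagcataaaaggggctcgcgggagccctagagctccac
Cxcl2: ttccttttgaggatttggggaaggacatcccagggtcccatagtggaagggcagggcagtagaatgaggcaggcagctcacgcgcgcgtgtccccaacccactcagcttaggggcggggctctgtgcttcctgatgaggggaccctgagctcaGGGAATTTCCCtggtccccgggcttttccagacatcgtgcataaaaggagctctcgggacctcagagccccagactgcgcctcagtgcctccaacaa
Cxcl9: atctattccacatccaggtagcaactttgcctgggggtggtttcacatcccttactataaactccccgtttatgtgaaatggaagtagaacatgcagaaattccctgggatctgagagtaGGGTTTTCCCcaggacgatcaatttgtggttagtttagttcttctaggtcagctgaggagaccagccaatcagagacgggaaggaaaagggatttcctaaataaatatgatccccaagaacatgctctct
Cxcl10: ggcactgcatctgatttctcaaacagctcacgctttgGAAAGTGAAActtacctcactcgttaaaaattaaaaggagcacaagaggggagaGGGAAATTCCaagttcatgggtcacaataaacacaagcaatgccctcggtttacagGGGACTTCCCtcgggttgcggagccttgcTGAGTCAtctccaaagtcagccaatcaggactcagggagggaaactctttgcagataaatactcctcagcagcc
Ccl8: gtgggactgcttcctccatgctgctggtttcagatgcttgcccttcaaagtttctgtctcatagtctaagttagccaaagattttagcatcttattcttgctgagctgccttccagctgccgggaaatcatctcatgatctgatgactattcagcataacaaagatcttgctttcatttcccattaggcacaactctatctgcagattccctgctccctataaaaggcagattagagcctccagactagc

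Cxcl1 held 3 NF-kB matches, of which 2 overlap on opposite strands 71 and 70 bases before the start. The Cxcl2 window held 2 such overlapping matches, which begin 97 and 96 bases before its start. Cxcl10 held 2 NF-kB matches, 1 interferon-stimulated response element and 1 AP-1 match, and Cxcl9 held 1 NF-kB match. The Ccl8 window, from the member with the lowest unadjusted p after 3 days, held no match to any of the 4 motifs. Over the whole family, 39 of the 54 members had a RefSeq promoter, and 17 of the 39 held an NF-kB match, which 17.6% of all 32851 promoters of this length did. The interferon-stimulated response element was in 3 of the 39 members against 2.98% of all promoters, the AP-1 motif in 5 against 6.75%, and the STAT motif in 3 against 7.02%. Among the 8 inflammatory ligands with a promoter, 5 held an NF-kB match, as did 3 of the 7 homeostatic ligands and 6 of the 15 receptors. These are counts of letters and do not show that a factor binds. The window of Ccl19, counted among the homeostatic ligands, holds sequence of its array probes.

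Levels are log2 signals relative to the 75th percentile of each array, so that 0 is the level of a probe at that percentile, and they are compared between arrays and not between genes. The share of all probes well above background ran from 53.8% in control replicate 1 after 3 days to 65.7% in the GHCre array of 10 days. Replicate 1 of both genotypes of 3 days shared 1 slide. Replicate 2 of both genotypes shared another slide with the GHCre array of 10 days, and the 10 day control lay alone on the third. Across the 21072 genes tested with limma, 0 passed a Benjamini-Hochberg adjusted p of 0.05 after 3 days, while 1390 had an unadjusted p under 0.05. The stem cell transcripts Sox2 and Pax6 did not exceed background on any array. No label says whether replicates came from separate mice, so the p-values measure only the spread between these samples. In a sorted bulk sample, fewer cells of a type and less RNA per cell cannot be told apart.

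Of the 54 members, 26 were above background on all 6 arrays, 11 on 2 to 5 arrays, 3 on 1 array and 14 on none. Of all 30397 genes, 14791 were above background on all 6 arrays and 21072 on at least 2, a share near that of the members. Ligands were detected more widely, with 20 of 35 on all 6 arrays, against 6 of 19 receptors. The 8 ligands on no array were the monocyte attractant Ccl12, the Ccr3 ligand Ccl26, the Ccr10 ligand Ccl28, the Ccr6 ligand Ccl20, the Ccr4 ligand Ccl22, the neutrophil attractant Cxcl3, Cxcl15 and Cxcl17. The 6 receptors on no array were Ccr1, Ccr3, Ccr4, Ccr6, the B cell receptor Cxcr5 and Xcr1. Ccl1 and the neutrophil receptor Cxcr1 were above background only on GHCre replicate 1 after 3 days, and Cxcr2 only on the GHCre array of 10 days. Per array, the count of member genes above background was 29 and 31 in the 3 day controls, 38 and 36 in the 3 day GHCre arrays, 34 in the 10 day control and 35 in the 10 day GHCre array. In the same order, 40 and 40, 49 and 46, 45 and 44 of the 70 member probes were above background. The share of all probes was 53.8% and 63.1%, 64.4% and 61.4%, 63.0% and 65.7%, so control replicate 1 was low for the whole array. A signal well above background on at least 2 arrays was required for a test, which left 37 members, 26 ligands and 11 receptors. Ccl8, Ccr7, Ccr9 and Cxcr7 entered with both GHCre arrays and neither control array of 3 days above background, so their higher level in GHCre is in part fixed by this filter.

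**Figure D1:**
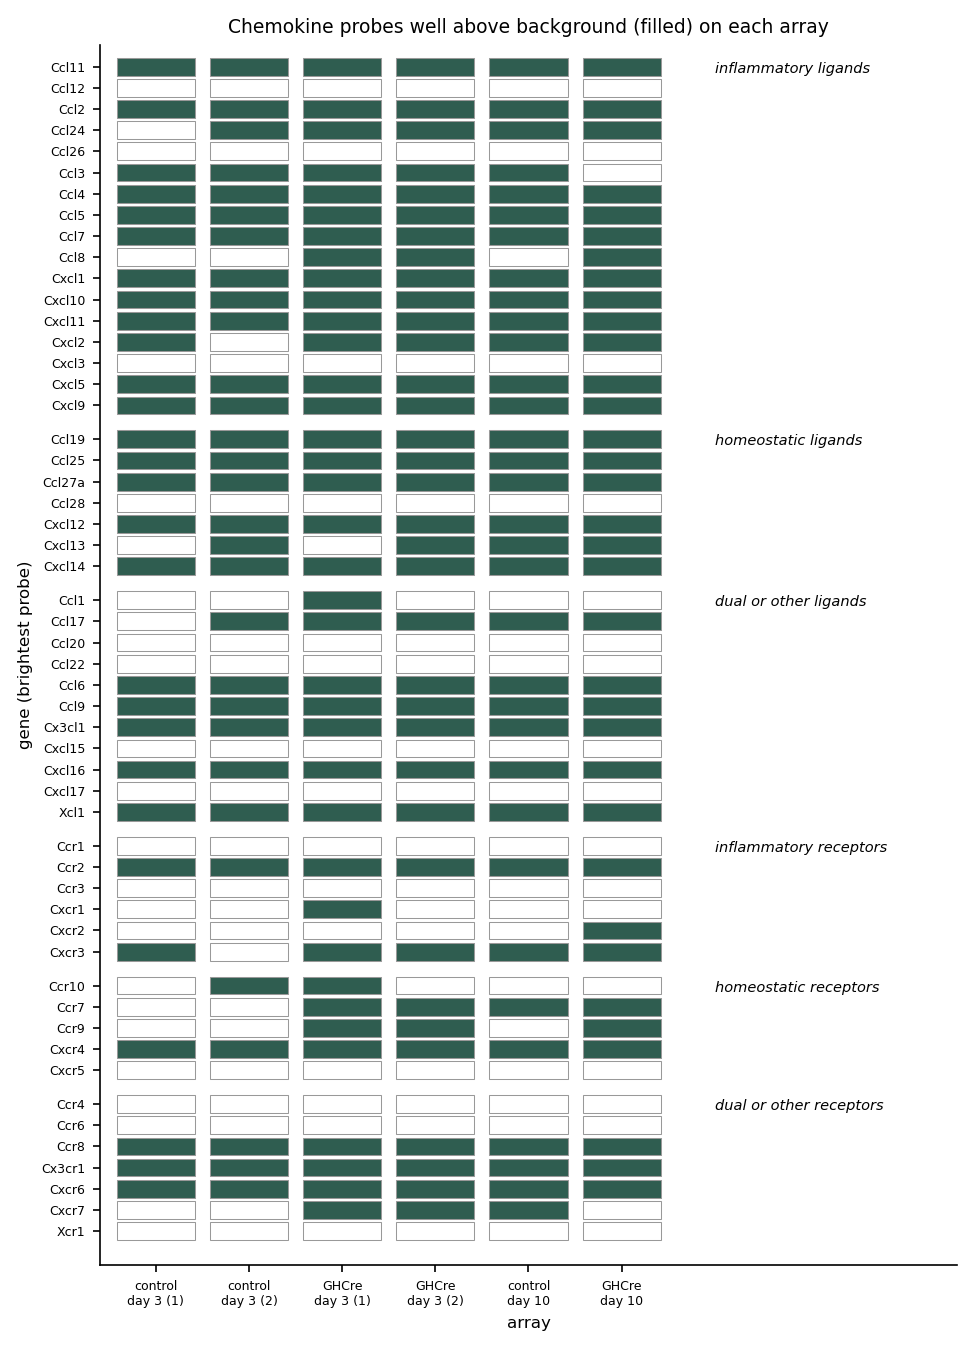
Members well above background by array. Each row is a gene (its brightest probe) grouped by class, each column an array, and a filled cell marks a signal well above background; 14 of the rows are filled on no array.

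After 3 days, inflammatory ligands stood mostly higher in GHCre than in control. Of 17 on the array 14 were tested, 12 were higher and 2 lower, with a median log2 difference of 1.35, and in 9 every GHCre array lay above every control array. Over all genes tested, 48.0% were higher in GHCre, the median was -0.04, and in 16.6% every GHCre array lay above every control. Among the 10 inflammatory ligands above background on all 6 arrays, 9 were higher, the median was 1.26, and in 7 every GHCre array lay above every control. Of all genes above background on all 6 arrays, 43.1% were higher and 15.9% lay above control in this way. No member passed the adjusted threshold. Of the 6 members with an unadjusted p under 0.05 all were higher in GHCre (Ccl8, Ccr7, Cxcr7, Ccl11, Cxcl10 and Cxcl2), where 3.95% of all genes had such a p in that direction and 2.65% in the other. For Ccl8, Ccr7 and Cxcr7 this direction is in part fixed by the filter. Of the 26 members above background on all 6 arrays, 2 had such a p, Ccl11 and Cxcl10. A fit of only the 14791 genes above background on all 6 arrays gave 587 with such a p in the higher direction. With normexp background correction and 75th percentile scaling, the median of all genes moved by -0.12 and 37.1% of genes were higher in place of 48.0%.

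Of the CC ligands in a cluster on chromosome 11, Ccl2, Ccl7, Ccl8 and Ccl11 did not overlap between genotypes, while Ccl12 was never above background and Ccl1 on 1 array only. Ccl8, a monocyte chemoattractant (probe at mm9 chr11:81930108-81930167), stood at -3.64 and -4.12 in the control arrays and at -0.34 and -0.53 in the GHCre arrays. Neither control array was above background and both GHCre arrays were, so that Ccl8 was at least 10.75-fold higher in GHCre (log2 difference 3.45 ± 0.43 SE, limma adjusted p = 0.646). This bound holds for the 75th percentile scaling of processed signal, and the lowest difference over the other settings was 1.495. Ccl11, the eosinophil attractant eotaxin, stood at 0.49 and 0.10 in control and at 3.08 and 2.22 in GHCre. The groups of Ccl11 did not overlap, with a 5.12-fold higher level in GHCre (2.36 ± 0.52 SE, adjusted p = 0.686) and similar values within slide 1 (2.59) and slide 3 (2.12). Ccl11 signals through Ccr3, whose probe never exceeded background.

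Ccl2 and Ccl7, the neighbouring monocyte attractants that act on Ccr2, were also higher in every GHCre array. Ccl2 stood at 3.66 and 2.16 in control and at 4.98 and 4.06 in GHCre, a log2 difference of 1.61 ± 0.73 (SE, adjusted p = 0.811). Ccl7 stood at 2.46 and 0.72 in control and at 3.79 and 2.53 in GHCre, a difference of 1.57 ± 0.85 (SE, adjusted p = 0.849). For both genes control replicate 2 was the low array, and the lowest GHCre value lay less than the spread between the controls above the highest control value. Without control replicate 2 the differences were 0.87 for Ccl2 and 0.71 for Ccl7.

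Ccl3, Ccl4 and Ccl5, attractants of monocytes and T cells encoded in a second group on the same chromosome, were less even. Ccl5 (RANTES, a T cell attractant) stood at 5.03 and 4.68 in control and at 5.80 and 5.55 in GHCre, a difference of 0.82 ± 0.42 (SE, adjusted p = 0.835) that was alike on slide 1 (0.77) and slide 3 (0.87). Ccl4 stood at 0.23 and -1.73 in control and at 0.76 and 2.04 in GHCre, a difference of 2.15 ± 0.91 (SE, adjusted p = 0.797). The groups of Ccl4 did not overlap, but the difference was 0.53 on slide 1 and 3.77 on slide 3. Ccl3 stood at -1.18 and -4.04 in control and at -1.58 and -1.38 in GHCre, so the groups overlapped, and its difference of 1.13 ± 1.08 (SE, adjusted p = 0.883) became -0.30 without control replicate 2.

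The neutrophil attractants of the CXC family on chromosome 5 were higher in GHCre in part. Cxcl1 stood at 6.88 and 6.47 in control and at 7.79 and 7.44 in GHCre, and the groups did not overlap (0.94 ± 0.44 SE, adjusted p = 0.815). Cxcl2, with the overlapping NF-kB letters printed above, stood at -2.95 and -5.08 in control and at -1.84 and -0.29 in GHCre. Control replicate 2 was not above background, and the difference of 2.95 ± 1.01 (SE, adjusted p = 0.751) was 1.11 on slide 1 and 4.79 on slide 3. Cxcl5 did not separate the genotypes, at 4.68 and 3.81 in control and 4.70 and 3.85 in GHCre, with a difference of 0.03 ± 0.58 (SE, adjusted p = 0.996). Cxcr2, the receptor of these ligands, did not exceed background on any 3 day array.

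The ligands of Cxcr3, Cxcl9, Cxcl10 and Cxcl11, are induced by interferon, and their reading depended on the probe. Both probes of Cxcl9, of Cxcl10 and of the homeostatic ligand Cxcl12 are shown by their first 30 bases, since the probes of a gene gave different values.
Cxcl9 probe A_55_P1977038: aagtcgtcgtcgttcaaggaagactacata
Cxcl9 probe A_51_P461665: atgggatttcattattaacttgatcccatc
Cxcl10 probe A_55_P2016462: gctttgcattgtatatggaagaacttgtgt
Cxcl10 probe A_55_P2016459: ttcctagtgtctagaagtggagcagttatt
Cxcl12 probe A_51_P172502: aggagaaggcagcttcctatatgcagcgtg
Cxcl12 probe A_55_P1966204: gctgtaaacctcctaccgtatgtgggaatt

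The brighter Cxcl10 probe (mm9 chr5:92775781-92775840) is annotated to the RefSeq transcript and stood at 2.17 and 0.96 in control and at 4.39 and 3.16 in GHCre. The groups did not overlap, with a 4.61-fold higher level in GHCre (2.20 ± 0.72 SE, adjusted p = 0.749) and near-equal values on slide 1 (2.21) and slide 3 (2.19). The other probe (mm9 chr5:92776616-92776675), annotated to the cDNA clone AK156907, stood at 1.48 and 0.60 in control and at 0.96 and -0.77 in GHCre. Its groups overlapped and its difference was -0.95, so that the mean of both probes gave 0.63 for the gene.

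For Cxcl9, which was singled out after its values were seen, both probes are annotated to the same RefSeq transcript. The brighter (mm9 chr5:92752796-92752855) stood at 1.27 and 0.91 in control and at 1.99 and 0.30 in GHCre, with a difference of 0.06 ± 0.72 (SE, adjusted p = 0.992). The dimmer (mm9 chr5:92752191-92752250) stood at -5.88 and -6.43 in control and at -0.51 and -1.07 in GHCre, and of these only the GHCre arrays were above background. That probe was at least 8.63-fold higher in GHCre (5.37 ± 0.50 SE, adjusted p = 0.638 with each probe tested on its own), while the brighter probe showed no separation. Its higher level is in part fixed by the filter, which it met through both 3 day GHCre arrays and the 10 day control. After 10 days the dimmer probe turned, at -2.94 in control and -4.86, not above background, in GHCre, at least 2.52-fold lower. The brighter probe then stood at 0.47 and -0.10. Cxcl11 stood at 6.07 and 5.68 in control and at 5.88 and 5.61 in GHCre, with overlap and a difference of -0.13 ± 0.43 (SE, adjusted p = 0.962). Its other probe stood at 4.18 and 3.96 in control and at 3.70 and 3.51 in GHCre. By that probe both GHCre arrays lay below both controls, with a difference of -0.46 ± 0.43 (SE, adjusted p = 0.897 with each probe on its own).

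**Figure D2:**
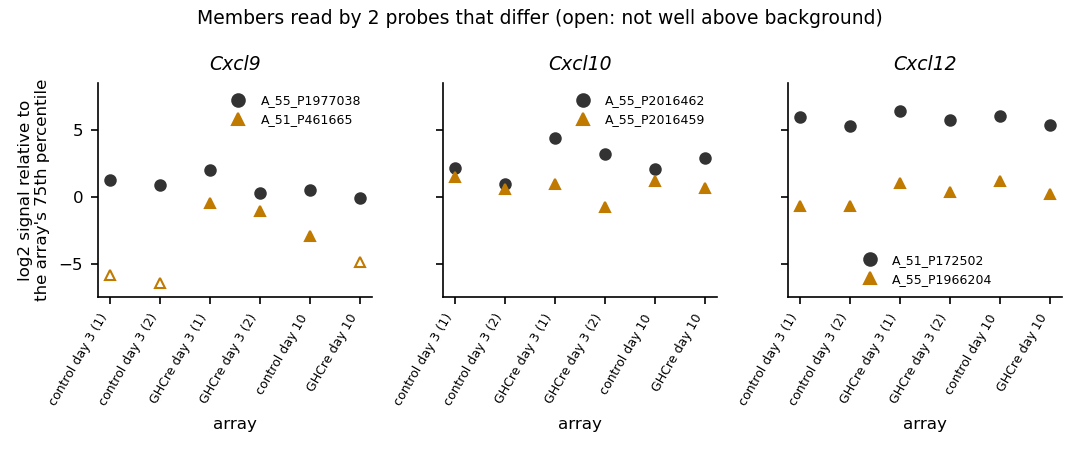
Levels of both probes of Cxcl9, Cxcl10 and Cxcl12 on each array, in log2 units against the 75th percentile of the array, with open symbols where a probe was not well above background. The dimmer Cxcl9 probe was near -6 in the 3 day controls and near -1 in the 3 day GHCre arrays, whereas the brighter probe overlapped between genotypes.

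By their brightest probes, homeostatic ligands did not lean to one genotype after 3 days. Of 7 on the array 6 were tested, 3 higher and 3 lower in GHCre, with a median difference of -0.01, and 1 lay above and 1 below control on every array, where 21.3% of all genes lay below. Among the 5 above background on all 6 arrays, 3 were higher and 2 lower, with a median of 0.26. Ccl27a gave 0.26 by its brightest probe and 0.98 and 0.90 by its other probes. Cxcl12, the ligand of Cxcr4 and Cxcr7 that retains stem and progenitor cells, stood at 5.95 and 5.29 in control and at 6.43 and 5.75 in GHCre by its brighter probe. The groups overlapped and the difference was 0.47 ± 0.52 (SE, adjusted p = 0.891). Its other probe, annotated to another RefSeq transcript, stood at -0.68 and -0.67 in control and at 1.03 and 0.35 in GHCre, with no overlap and a difference of 1.36 ± 0.48 (SE, adjusted p = 0.742 with each probe on its own).

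Ccl19, which draws dendritic and T cells through Ccr7, stood at 4.41 and 4.44 in control and at 5.21 and 5.15 in GHCre. The groups did not overlap (0.75 ± 0.40 SE, adjusted p = 0.842), and its 2 further probes gave 0.41 and 0.81. Ccl19 and Ccl27a have near-identical gene copies in the mouse, so which copy these probes read is uncertain. The sequence of the brightest Ccl19 probe begins within the 250 bases before the RefSeq start, as does that of the probe with 0.41. Whether these probes read the Ccl19 transcript was not tested. Ccl25, the thymic and gut ligand of Ccr9, stood at 0.87 and 0.92 in control and at 0.54 and 0.67 in GHCre, the only tested homeostatic ligand below control on both arrays (-0.29 ± 0.40 SE, adjusted p = 0.908). Its 3 other probes gave -0.94, 0.42 and -1.36, and were not all above background.

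Cxcl13, the B cell attractant, stood at -3.61 and -1.82 in control and at -5.30 and -2.09 in GHCre, with overlap and a difference of -0.98 ± 1.35 (SE, adjusted p = 0.908). Cxcl14 stood at -0.91 and -0.69 in control and at -3.89 and -0.02 in GHCre, so that GHCre replicate 1 alone was low. Without that array the difference was 0.62 for Cxcl13 and 0.78 for Cxcl14, in place of negative values. Among the 6 tested ligands of dual or other roles, 3 were higher and 3 lower, with a median of 0.02. Of these only fractalkine, Cx3cl1, a ligand tethered to the cell surface, separated the genotypes. Cx3cl1 stood at 1.26 and 1.02 in control and at 2.37 and 1.85 in GHCre (0.98 ± 0.44 SE, adjusted p = 0.811).

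**Figure D3:**
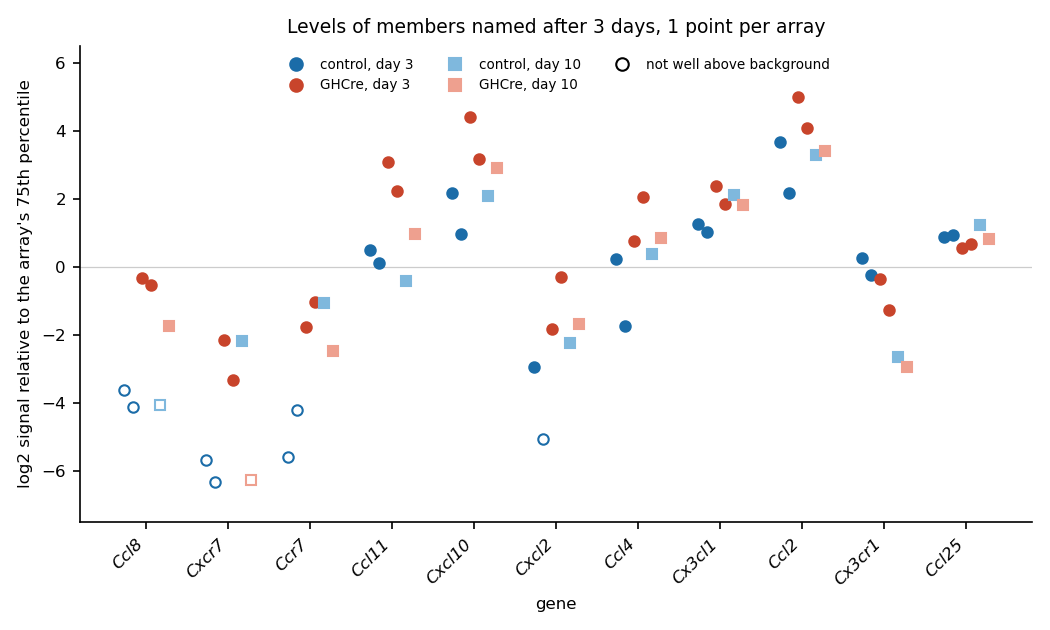
Levels on each of the 6 arrays for members whose 3 day replicates did not overlap and which were chosen by lowest unadjusted p, in log2 units against the 75th percentile of the array. Circles are arrays of 3 days and squares arrays of 10 days, open where the probe was not well above background; Ccl8, Ccr7 and Cxcr7 are open in both 3 day controls.

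Receptors gave 7 higher and 4 lower members of 11 tested after 3 days, with a median difference of 1.05, against 18 higher and 8 lower of 26 ligands, with a median of 0.53. Of the 11 receptors only 6 were above background on all 6 arrays, and these gave 3 higher, 3 lower and a median of 0.30. The 20 ligands above background on all 6 arrays gave 15 higher, 5 lower and a median of 0.53. The receptor median therefore depends on receptors that were dim in control, whereas the ligand median was 0.53 in both sets.

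The homeostatic receptor Ccr7, which guides dendritic and T cells to lymph nodes along Ccl19, was detected after 3 days in GHCre alone. Ccr7 (probe at mm9 chr11:99005551-99005610) stood at -5.59 and -4.22 in control and at -1.77 and -1.05 in GHCre, with neither control array above background. It was at least 5.61-fold higher in GHCre (3.50 ± 0.67 SE, adjusted p = 0.686), with 0.97 as the lowest difference over the other settings. Cxcr7, now named Ackr3, is a scavenging receptor that removes Cxcl12. Cxcr7 (probe at mm9 chr1:92111803-92111862) stood at -5.67 and -6.32 in control and at -2.16 and -3.33 in GHCre, again with neither control array above background. The bound was 2.22-fold (3.25 ± 0.61 SE, adjusted p = 0.685), and the lowest difference over the other settings was 0.57.

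Ccr2, the monocyte receptor of Ccl2 and Ccl7, was higher in both GHCre arrays. Ccr2 stood at -1.43 and -2.01 in control and at -0.63 and -0.96 in GHCre (0.93 ± 0.46 SE, adjusted p = 0.829). Its groups did not overlap, and it was above background on all 6 arrays. Cxcr3, the T cell receptor of the interferon-induced ligands, stood at -0.19 and -4.19 in control and at -0.20 and -1.49 in GHCre, with overlap (1.35 ± 1.53 SE, adjusted p = 0.895), and its difference was -0.65 without control replicate 2.

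Cx3cr1, the fractalkine receptor of microglia and monocytes, was the only tested receptor below control on both GHCre arrays. It stood at 0.26 and -0.26 in control and at -0.37 and -1.27 in GHCre, a difference of -0.82 ± 0.54 (SE, adjusted p = 0.861), opposite in sign to that of its ligand. Cxcr4, the signalling receptor of Cxcl12, stood at 2.26 and 3.16 in control and at 1.68 and 3.08 in GHCre, with overlap (-0.34 ± 0.71 SE, adjusted p = 0.940). Ccr9 stood at -5.90 and -4.19 in control (both below the background limit) and at -4.08 and -3.90 in GHCre, a difference of 1.05 ± 0.72 (SE, adjusted p = 0.864) whose sign turned to -0.15 with normexp and 75th percentile scaling. Cxcr6, Ccr8 and Ccr10 also had overlapping groups, with differences of 1.46, -0.57 and -0.80.

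**Figure D4:**
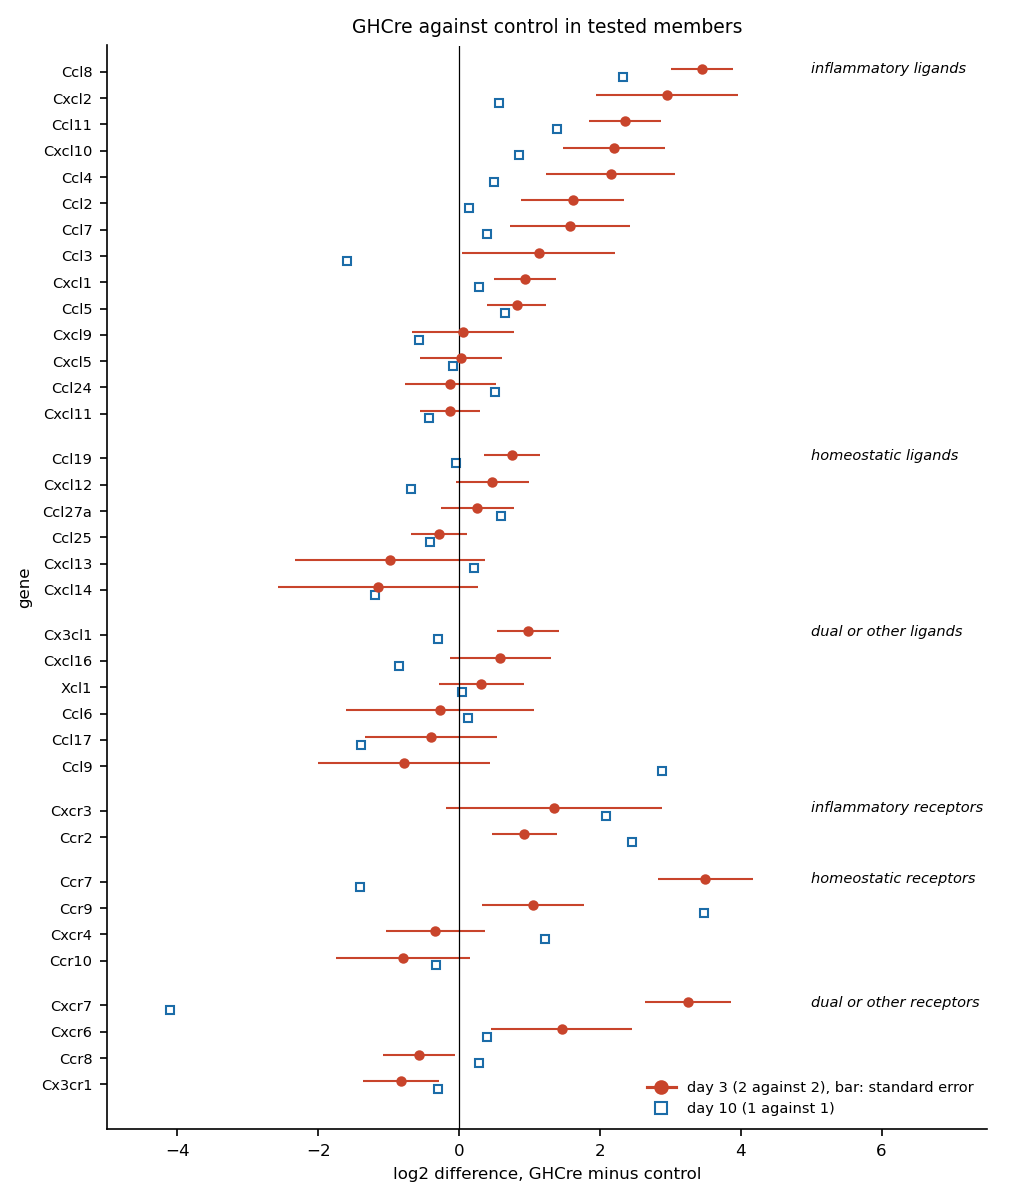
Log2 difference between GHCre and control for tested members, by class. Filled circles with bars are the 3 day values with their standard error (2 arrays against 2). Open squares are the 10 day values (1 against 1). Of 14 inflammatory ligands 12 lie above 0 after 3 days, and 13 have a lower value after 10 days than after 3. Both counts use the same 3 day arrays.

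Transcripts of blood and stromal cells differed between the same arrays. The summed level of 12 lymphocyte markers, as linear signal relative to the 75th percentile, was 20.2 to 24.1 in the 3 day controls and 39.2 to 42.8 in the 3 day GHCre arrays, and 7 of 9 tested were higher, while Cd79b and Ms4a1 were never above background. For 10 fibroblast and pericyte markers the sum was 137 to 207 in control and 219 to 268 in GHCre, with 10 of 10 higher. For 10 endothelial markers it was 4.55 to 5.37 in control and 5.998 to 8.11 in GHCre, with 7 of 8 tested higher and Tie1 never above background. Over all genes, 48.0% were higher after 3 days and 49.9% after 10 days. After 10 days the lymphocyte sum was 22.2 in control and 33.5 in GHCre, with 6 of 9 higher. The fibroblast and pericyte sum was then 172 and 167, with 2 of 10 higher. The endothelial sum was 6.42 and 5.75, with 3 of 8 higher.

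Myeloid lists did not differ in 1 direction. For 15 macrophage and myeloid markers the sum was 201 to 242 in control and 173 to 176 in GHCre, with 8 of 12 tested higher and a median difference of 0.23, and Aif1, C1qa and Mrc1 were never above background. For 9 neutrophil markers it was 179 to 240 in control and 144 to 169 in GHCre, with 2 of 7 tested higher and Ly6g and Mpo never above background. Both sums are carried by 1 gene each, and without it they overlapped between the genotypes: without Itgam the macrophage sum was 41.5 to 48.5 in control and 42.9 to 48.4 in GHCre, and without Csf3r the neutrophil sum was 9.46 to 11.01 in control and 4.38 to 13.5 in GHCre. For 14 immediate early genes, which mark dissociation stress, it was 1151 to 1171 in control and 1243 to 1431 in GHCre, with 13 of 14 higher. For 7 hormone transcripts the sum was 2144 to 2274 in control and 1311 to 1613 in GHCre, with 2 of 6 tested higher, and without Prl, which carries it, 16.0 to 108 and 8.47 to 68.0. For 10 pituitary stem cell markers the sum was 21.9 to 26.2 in control and 21.9 to 22.8 in GHCre, with 3 of 6 tested higher, and without Gfra2, the brightest, 14.3 to 14.9 and 17.0 to 17.9. The part of these cells and of dissociation in the chemokine values was not tested.

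After 10 days there was 1 array per genotype, so differences are described by a fold of 2 with no test, and the 10 day control lay on a slide of its own, so that its slide and its genotype cannot be told apart. Of 37 members 7 were at least 2-fold higher and 5 at least 2-fold lower in GHCre, against 12.7% and 14.1% of all genes. Ccl8 and Ccr9, counted as higher, were above background on GHCre arrays only, so their direction is in part fixed by the filter. Among the 26 members above background on all 6 arrays, 4 were at least 2-fold higher and 1 at least 2-fold lower. Of the 14791 genes above background on all 6 arrays, 1281 were higher and 1461 lower in this way. By class, 10 of 14 inflammatory ligands were higher, with a median of 0.45, 2 of 6 homeostatic ligands, with a median of -0.23, and 7 of 11 receptors, with a median of 0.40. Over all genes 49.9% were higher.

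Among ligands, Ccl9, Ccl8 and Ccl11 were past 2-fold upward. Ccl9, a myeloid attractant, stood at -1.11 in control and 1.77 in GHCre, but its 3 day arrays spanned from -1.35 to 1.81 within the controls alone. Ccl8 stood at -4.07 in control, not above background, and at -1.75 in GHCre, at least 4.57-fold higher. Ccl11 stood at -0.43 in control and 0.96 in GHCre, a difference of 1.39, so that Ccl8 and Ccl11 were higher in GHCre at both times. The interferon-induced Cxcl10 stood at 2.07 and 2.91, Cxcl1 at 7.001 and 7.28, Ccl5 at 4.603 and 5.25, Ccl2 at 3.27 and 3.41 and Ccl7 at 1.41 and 1.81 in control and GHCre. All 5 were thus above control by less than 2-fold by their brightest probes, while the other Cxcl10 probe was below control, at 1.16 and 0.66.

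Lower by at least 2-fold in GHCre were the ligands Ccl3, Ccl17 and Cxcl14. Ccl3 stood at -3.17 in control and at -4.76, not above background, in GHCre, at least 2.15-fold lower. Ccl17, the ligand of Ccr4, stood at -0.65 and -2.04, and Cxcl14 at 1.04 and -0.16. Each of these lost the 2-fold difference under another setting, with values nearest to 0 of -0.26 for Ccl3, -0.86 for Ccl17 and -0.998 for Cxcl14. By their brightest probes, the remaining named ligands lay within 2-fold of control: Cxcl12 at 6.02 and 5.34, Ccl19 at 4.52 and 4.49, Ccl4 at 0.36 and 0.85, Cx3cl1 at 2.10 and 1.80, Cxcl2 at -2.25 and -1.67, Cxcl13 at -2.02 and -1.81 and Ccl25 at 1.22 and 0.80 in control and GHCre. The other probes of Ccl25 gave differences of -2.56, -1.89 and -1.09, of which only the first was above background on all 6 arrays. The lowest Ccl25 difference over the other settings was -1.49, past 2-fold.

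Receptors past 2-fold upward after 10 days were Ccr9, Ccr2, Cxcr3 and Cxcr4. Ccr9 stood at -4.14 in control, not above background, and at -0.66 in GHCre, at least 9.71-fold higher. Ccr2 stood at -2.71 in control and -0.25 in GHCre, a difference of 2.45, and was higher at both times. Cxcr3 stood at -1.88 and 0.21, and Cxcr4 at 1.33 and 2.56, where their 3 day groups overlapped. With normexp and 75th percentile scaling, the 10 day differences were 1.35 for Ccr2, 1.58 for Ccr9 and 0.87 for Ccl8, so the bounds hold for the reported scaling only.

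Cxcr7 and Ccr7 were lower in GHCre after 10 days, the reverse of 3 days. Cxcr7 stood at -2.18 in the 10 day control and at -6.28, not above background, in GHCre, at least 4.26-fold lower. Ccr7 stood at -1.07 in control and -2.48 in GHCre, both above background. Against the 3 day controls, where neither gene was above background, the 10 day control was at least 3.30-fold higher for Cxcr7 and at least 7.11-fold higher for Ccr7. Over the other settings the 10 day genotype difference came as near to 0 as -0.93 for Cxcr7 and -0.77 for Ccr7, both under 2-fold, and kept its sign. Cx3cr1 stood at -2.65 and -2.95 in control and GHCre.

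The difference of the genotype effects between 10 and 3 days was tested as an interaction, and 0 of 21072 genes passed in limma, with 835 at an unadjusted p under 0.05. Of the 37 members 12 had a larger and 25 a smaller value after 10 days, with a median of -0.54, where 51.4% of all genes had a larger value. Inflammatory ligands gave 13 of 14 smaller, with a median of -1.05, and Ccl24, a Ccr3 ligand, was the exception. The 3 day difference is subtracted here, so a class higher in GHCre after 3 days is drawn to smaller values by the same arrays. Homeostatic ligands gave 4 of 6 smaller, with a median of -0.09, and receptors 4 of 11 smaller, with a median of 0.53. The values were -2.38 ± 1.74 (SE) for Cxcl2, -1.47 ± 1.27 for Ccl2, -1.36 ± 1.26 for Cxcl10 and -1.13 ± 0.75 for Ccl8. The members with an unadjusted p under 0.05 were Cxcr7, at -7.36 ± 1.06 (SE), and Ccr7, at -4.91 ± 1.17, where 2.48% of all genes had such a p in that direction, and the adjusted p of both rounded to 1.00. These sizes rest on arrays below background (both 3 day controls for either gene, and the 10 day GHCre array for Cxcr7) and on 1 array per genotype after 10 days, and over the other settings they shrank to -1.61 for Cxcr7 and -1.79 for Ccr7.

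Within each genotype the 10 day array was set against those of 3 days, comparisons that share arrays with those above. In GHCre 7 of 37 members were at least 2-fold higher after 10 days and 11 at least 2-fold lower, against 14.0% and 11.3% of all genes. Of the 14 inflammatory ligands 0 were 2-fold higher and 6 were 2-fold lower in GHCre, and 13 were lower by any amount, where 57.4% of all genes were higher. In control 7 of 37 members were 2-fold higher and 4 lower, against 16.8% and 9.15% of all genes, and inflammatory ligands divided evenly, 7 higher and 7 lower, where 55.2% of all genes were higher. Cx3cr1 was lower after 10 days in both genotypes, by a log2 difference of -2.65 in control and -2.13 in GHCre.

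Beyond the name rule, 6 of 10 further entries for chemokines, scavenging receptors and related proteins were tested, and all 6 were higher in GHCre after 3 days, with a median of 1.52, where 48.0% of all genes were higher. In limma 0 passed and 2 had an unadjusted p under 0.05, against 3.95% of all genes in that direction. Ccrl2, which binds chemerin and presents it to cells, stood at -3.87 and -2.56 in control and at -0.17 and -0.07 in GHCre (3.09 ± 0.61 SE, adjusted p = 0.686). Cmtm3 stood at 0.02 and -0.25 in control and at 1.64 and 1.30 in GHCre (1.59 ± 0.42 SE, adjusted p = 0.706). After 10 days 1 of the 6 was higher.

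Of 30 genes that carry chemokine receptor signals, 29 were tested. After 3 days 21 were higher in GHCre and 8 lower, where 48.0% of all genes were higher. The median was 0.39, with 0.73 on slide 1 and 0.17 on slide 3. In limma 0 passed and 5 had an unadjusted p under 0.05, against 3.95% of all genes in the higher and 2.65% in the lower direction. The Rac exchange factor Prex1 stood at -3.66 and -3.06 in control and at -0.44 and -1.004 in GHCre (2.63 ± 0.49 SE, adjusted p = 0.685). The kinase Lyn was not above background in control and was at least 6.18-fold higher in GHCre, at -2.55 and 0.00. Rgs1, which ends G protein signals, stood at 0.47 and 0.46 in control and at 1.45 and 2.15 in GHCre. Pik3cg, a lipid kinase driven by G proteins, was not above background in control and was at least 1.11-fold higher in GHCre, at -3.73 and -3.78. Lyn and Pik3cg entered the test only through GHCre arrays, so their higher level is in part fixed by the filter. Pik3cg is among the 5 with an unadjusted limma p under 0.05. The inhibitory G protein subunits Gnai2 and Gnai3 gave 0.39 and 0.70.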

How the data were processed

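RNA of the sorted side population was measured on 6 one-colour arrays, with samples grouped by their titles, since the free-text descriptions disagree with titles for some samples. Per the file headers, the deposited processed signal is an intensity from Agilent Feature Extraction 10.7.3.1 after background subtraction, with no scaling between arrays. Log2 values of the deposited series table matched quantile normalized processed signal, and its processing is not given in the sources used here. Arrays give no counts, so their number limits the precision.

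Non-control spots (43020) were averaged per probe, log2 transformed and scaled by each array's 75th percentile. A gene was read by its brightest probe on average, and tested where this was well above background on at least 2 arrays. Group means were fitted over all 6 arrays (limma 3.58.1, R 4.3.3), with 2 residual degrees of freedom, Benjamini-Hochberg adjustment over 21072 genes and a threshold of 0.05, and the fitting code was tested on simulated data. The 10 day values assume the spread of 3 days. Where a gene was not above background in a group, each of its arrays was set to no less than the lowest signal above background, which gives the "at least" folds. Inflammatory, homeostatic and other classes follow general usage. Probe positions are the mm9 positions of the files, and promoters come from RefSeq GRCm38.p6. No protein sequences were used here. Python 3.11.15 and matplotlib 3.10.9 drew the figures.

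Members and lists were chosen with earlier results of these data known. Values on every array are given for up to 10 members in each direction of lowest unadjusted p after 3 days with no overlap, up to 6 in each direction past 2-fold after 10 days, set members (Ccl2, Ccl5, Ccl7, Cxcl1, Cxcl2, Cxcl10, Cxcl12, Cxcl13, Cx3cl1, Ccr2, Ccr7, Cx3cr1, Cxcr4 and Cxcr7) and members whose probes disagree in direction by over 1 log2. Cxcl5, Cxcl9 and Cxcl11 were added to complete their subgroups. Some genes that the rule or the lists hold are counted but not reported here by name, nor drawn. Alternatives were the series table, quantile normalization, normexp (offset 50) followed by either scaling, no filter, a filter of all 6 arrays, the mean of all probes, each probe on its own, an intensity trend in the variance, the replicate number or slide as a block, and leaving out each 3 day array.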

Additional observations from a re-analysis of the deposited data

How the results depend on the processing

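Under every alternative run, 0 genes passed the adjusted threshold in limma in the 5 comparisons. The median of the inflammatory ligands after 3 days lay between 0.94 and 1.43 over the alternatives that kept all arrays, and between 0.72 and 2.40 when an array was left out, with 2.40 without control replicate 1. Over all genes tested, the deviations of the replicates hardly correlated between the genotypes (0.087). Single members were not tested for a shared shift of a slide. Cxcl12, whose groups overlapped, gave 0.48 on slide 1 and 0.47 on slide 3, whereas Cxcl2 gave 1.11 and 4.79. With the replicate block 1473 genes had an unadjusted p under 0.05 in limma after 3 days, against 1390 without it. The slide block is the same fit after 3 days and could not give the comparisons of 10 days.

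The receptor count after 3 days was 12 with no filter and 3 with the filter of all 6 arrays. The receptor median after 3 days was 0.44 with normexp and 75th percentile scaling, 0.47 with normexp and quantile normalization, 0.38 with no filter, 0.30 with the filter of all 6 arrays and 0.32 to 0.96 without each array. For the difference between times it was 0.87 with quantile normalization, 0.87 with the series table and 0.073 to 0.86 without each array.

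The homeostatic median after 3 days was 0.26 with no filter, 0.26 with the filter of all 6 arrays, 0.42 with each probe on its own and -0.26 to 0.42 without each array. After 10 days it was -0.50 with the mean of all probes. For the difference between times it was -0.35 and -0.41 with the normexp scalings, -0.57 with the mean of all probes, -0.79 with each probe on its own and -0.58 to 0.11 without each array. Ccr9 after 3 days was -0.15 with normexp and 75th percentile scaling and -0.17 with the mean of all probes, and the Cx3cr1 difference between times was -0.86 with the mean of all probes. The cause was not tested.

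Leaving out an array of 3 days turned the sign of some members: the values after 3 days ran for Ccl17 from -1.46 to 0.67, Ccl3 from -0.30 to 2.56, Ccl9 from -2.36 to 0.80, Cxcl13 from -2.59 to 0.62, Cxcl14 from -3.09 to 0.78, Cxcr3 from -0.65 to 3.35 and Cxcr4 from -1.04 to 0.37. Likewise, the values for the difference between times ran for Ccl17 from -2.06 to 0.066, Ccl5 from -0.34 to 0.0051, Cxcl13 from -0.41 to 2.80, Cxcl14 from -1.98 to 1.89 and Cxcr3 from -1.25 to 2.74. Signal near background limits Ccl8, Ccr7, Ccr9, Cxcr7 and Cxcl2.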
